A study of Homo sapiens with 32 samples.

Results

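The NOTCH receptors and ligands described here are 10 genes, taken by symbol from a fixed list: the receptors NOTCH1, NOTCH2, NOTCH3 and NOTCH4, the ligands DLL1, DLL3, DLL4, JAG1 and JAG2, and MFNG, a fringe glycosyltransferase that modifies the receptors. All 10 were found among the 28278 gene symbols of the count tables and among the 60199 Ensembl genes of the knockdown table. NOTCH signalling passes between neighbouring cells: a Delta-like or Jagged ligand on one cell binds a NOTCH receptor on the other, the receptor is cut by ADAM proteases and then by gamma-secretase, and its intracellular part enters the nucleus and, with RBPJ and a MAML coactivator, turns on genes of the HES and HEY families. Fringe enzymes such as MFNG add sugars to the receptor that favour Delta-like over Jagged ligands, and DLL3 mostly acts within the cell as an inhibitor. The pathway sets fate decisions in the neural and mesenchymal tissues to which Ewing sarcoma, a bone and soft-tissue tumor driven by the EWSR1-FLI1 fusion, has been related.

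The study asked how loss of STAG2, one of the alternative subunits of the cohesin ring that folds chromatin, alters transcription in Ewing sarcoma cells. RNA was sequenced from 32 libraries of the Ewing sarcoma lines A673, SK-N-MC and A4573. Polycomb repressive complex 2 (PRC2), which methylates histone H3 and of which EZH2 and SUZ12 are subunits, was removed for comparison. In experiment 1, A673 controls were libraries Ra and Rb of the WT clone, which carries a doxycycline-inducible Cas9 at the AAVS1 site (genotype iCas9), and 1 library of the parental line (WT), and the KO cells were STAG2 KO libraries 5 and 24. In experiment 2 there were 2 WT clone libraries, 1 parental library, and clones 2, 3 and 5 of STAG2 KO and 3 clones each of EZH2 KO and SUZ12 KO. In experiment 3 a WT clone library and a parental library stood beside 3 STAG1 KO libraries, STAG1 being the other form of that cohesin subunit. Every KO clone came from the iCas9 clone, so the WT clone shares the Cas9 insertion with the KO cells and the parental line lacks it. In experiment 4, A673 cells received either mock transfection (siC) or a STAG2 siRNA (siSTAG2), in 3 libraries each, and the labels give neither the siRNA dose nor the time. SK-N-MC contributed 1 library with STAG2 (iCas9) and 1 STAG2 KO library. A4573 contributed 1 library labelled WT (iCas9), from a line that lacks STAG2 according to the methods, and 1 library in which STAG2 was restored by editing (STAG2 KI). Libraries are clones or cultures of single cell lines, so that p-values measure the spread between clones or cultures of 1 line. Ra and Rb come from 1 clone and were nearly alike, with a mean chi-square per gene of 1.33. That between the WT clone libraries of experiment 2 was 9.41. They still entered the main test as 2 separate controls, which can understate the spread.

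A few libraries need care. STAG2 KO clone 5 of experiment 2 stood apart from clones 2 and 3, with a mean chi-square per gene of 113 to 140 against each of them and of 25.7 between them, and results that rest on it are given with and without it. STAG1 KO library 1 held 61.1 CPM (read counts scaled to library size with TMM factors) of STAG1, against 57.4 and 69.2 CPM in the controls and 14.99 and 33.04 CPM in libraries 5 and 7, so it is called the library labelled STAG1 KO 1. The other edited genes were lower in their own KO cells. STAG2 was at 42.2 to 183 CPM in STAG2 KO and 255 to 359 CPM in control libraries, EZH2 fell from a mean of 180 to 42.9 CPM, SUZ12 fell from 62.4 to 15.9 CPM and STAG2 fell to 144 to 180 from 992 to 1090 normalised reads after siSTAG2. Totals were 15734628 to 20663679 counts in A673 clones, 29322507 to 32261248 in the SK-N-MC and A4573 libraries and 6852340 to 8184632 recovered reads in the knockdown. Of 8 Ewing sarcoma markers, 7 were above 0 in every count library and CD99 was listed at 0 in all. All 8, CD99 among them, were above 0 in every knockdown library of A673. Why CD99 is listed at 0 in the count libraries was not tested. The summed level of 5 endothelial markers was 77.5 to 164 CPM in STAG2 KO cells of experiment 2, 25.3 to 34.6 CPM in those of experiment 1, 18.6 to 50 CPM in the controls of both and 4.78 to 18.7 CPM in EZH2 KO and SUZ12 KO cells. EMCN ranged from 1.93 to 163 CPM over the A673 clones, and the other 4 genes summed to 0.415 to 6.54 CPM. Leukocyte markers summed to 7.27 to 8.68 CPM in EZH2 KO and 2.21 to 4.83 CPM in SUZ12 KO clones against 2.49 to 5.43 CPM in their controls, to 6.5 to 10.3 CPM in STAG1 KO against 2.77 to 3.79 CPM, and to 2.24 to 3.99 CPM in STAG2 KO libraries. Epithelial markers summed to 0.582 to 2.79 CPM in SUZ12 KO against 0.111 to 0.17 CPM in their controls, and to at most 0.887 CPM in the other A673 groups. The part of these markers in any result below was not tested, and in bulk RNA fewer cells of a type and less RNA per cell cannot be told apart.

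The results turned mainly on JAG2, JAG1 and NOTCH1, whose promoters are shown because PRC2, removed in part of these clones, is known to occupy CG-rich promoters. The sequences are the 250 bases before the RefSeq start on GRCh38.p14, written 5′ to 3′ on the strand of the gene, with each CG dinucleotide in capitals. They lie at chr14:105168777-105169026, chr20:10674000-10674249 and chr9:136546049-136546298, all on the minus strand. A sequence was found for 7 of the 10 genes, and DLL1, DLL3 and MFNG had none. The gene positions given below come from GENCODE, in which JAG2 and NOTCH2 start further upstream than in RefSeq. By those positions the JAG2 window lies partly, and the NOTCH2 window wholly, inside the gene.
JAG2: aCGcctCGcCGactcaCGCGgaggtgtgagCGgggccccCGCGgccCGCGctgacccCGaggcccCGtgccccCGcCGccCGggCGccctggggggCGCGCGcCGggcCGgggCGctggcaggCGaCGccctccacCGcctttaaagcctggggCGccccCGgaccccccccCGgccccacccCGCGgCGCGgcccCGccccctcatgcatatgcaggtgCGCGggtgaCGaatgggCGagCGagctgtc
JAG1: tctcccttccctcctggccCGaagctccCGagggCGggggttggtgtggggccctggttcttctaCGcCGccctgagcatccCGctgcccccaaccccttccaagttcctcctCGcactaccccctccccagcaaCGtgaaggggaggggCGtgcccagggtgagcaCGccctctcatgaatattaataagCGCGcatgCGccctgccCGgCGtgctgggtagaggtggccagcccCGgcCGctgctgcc
NOTCH1: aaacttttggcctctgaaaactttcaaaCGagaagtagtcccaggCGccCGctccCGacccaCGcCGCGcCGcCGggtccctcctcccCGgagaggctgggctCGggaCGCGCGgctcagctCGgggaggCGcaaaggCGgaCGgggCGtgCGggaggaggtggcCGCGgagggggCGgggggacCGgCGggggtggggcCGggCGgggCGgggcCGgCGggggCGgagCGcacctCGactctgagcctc
JAG2 held 38 CG dinucleotides in this window, a number reached by 3.28% of 35116 promoters of the same length, whose median was 11. NOTCH1 held 33 (reached by 8.15% of promoters), NOTCH2 29 (14.1%), NOTCH3 28 (15.9%), DLL4 20 (32.4%), JAG1 17 (39.0%) and NOTCH4 3 (77.1%). The motif GGAA, the core of ETS sites such as those bound by FLI1, was counted on both strands and occurred 7 times for NOTCH4, 3 times for JAG1 and NOTCH2, once for NOTCH3 and DLL4, and not in the JAG2 and NOTCH1 windows. At least 1 GGAA was present in 92.7% of all promoters. Tandem GGAAGGAA, which contains GGAA, and TGGGAA, the letters of an RBPJ site, were absent from all 7 windows and present in 3.06% and 20.8% of promoters. These matches describe letters and say nothing about binding.

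In the controls of experiments 1 to 3, NOTCH1, NOTCH2, NOTCH3, JAG1 and JAG2 were the abundant members and the Delta-like ligands, NOTCH4 and MFNG were scarce. That order differed for DLL3 in mock transfected cells when values were divided by exon length. Compared per kilobase of exon, NOTCH3 had the highest control level in experiment 1 (20 ± 5.39 CPM per kb, SD, n = 3), apart from all others, while NOTCH2 (8.53), JAG2 (8.01), NOTCH1 (7.30) and JAG1 (6.48) overlapped their neighbours in that order. DLL3 (0.993 CPM per kb) and DLL1 (0.67) came next, above NOTCH4 (0.193) and DLL4 (0.0707). The order was not fixed between experiments. NOTCH2 led in experiment 2 (9.44 CPM per kb), ahead of JAG1 (7.89), NOTCH3 (6.34), NOTCH1 (4.69) and JAG2 (3.12). In experiment 3, NOTCH3 (24.1 CPM per kb) led again, before NOTCH1 (9.61), NOTCH2 (9.51), JAG2 (5.57) and JAG1 (4.88). Across the 8 controls NOTCH3 spanned 4.4 to 24.1 CPM per kb, and experiment is therefore a term wherever experiments are joined. In mock transfected cells DLL3 (26.3 normalised reads per kb) was apart from both NOTCH3 above it (33.3) and JAG2 below it (21.4). This place rests on the division by exon length. Undivided, the mean of DLL3 was 69.0 normalised reads, below NOTCH3 (313), NOTCH2 (257), NOTCH1 (253), JAG1 (145) and JAG2 (137). Whether reads of the knockdown libraries spread evenly along exons was not tested. MFNG had 0 counts in 18 of 26 count libraries and at most 5 in the rest, and 0 reads in all 6 knockdown libraries. A count of 0 allows up to 0.191 CPM, or 0.438 CPM of recovered reads in the knockdown, so MFNG was not detectable at this depth in most libraries. DLL4 had 1 to 33 counts, with at most 3 in 9 of 26 libraries. Intervals and floors cover counting error only.

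**Figure D1:**
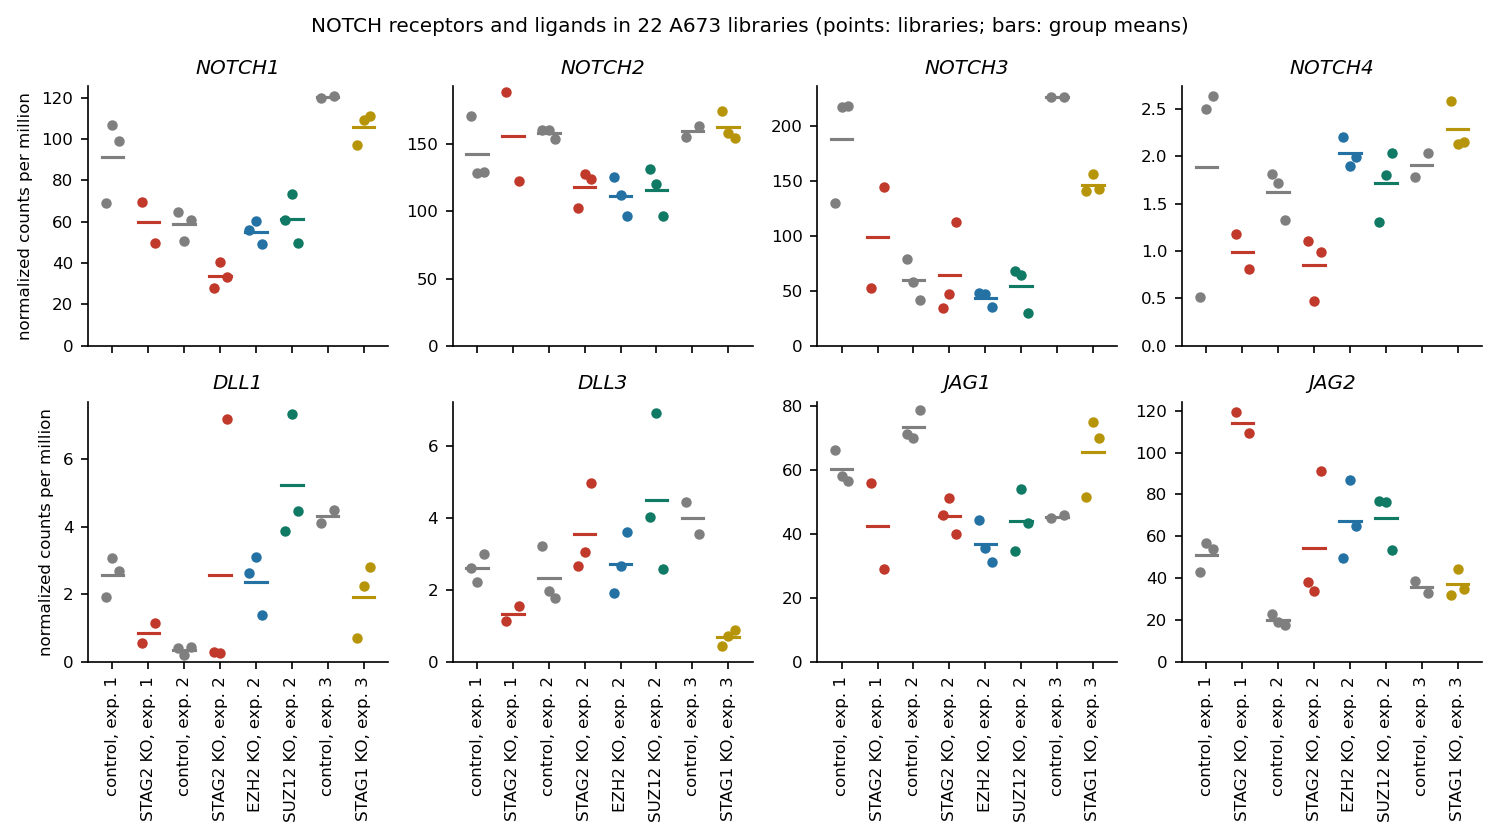
Level of the NOTCH receptors and ligands in the 22 A673 clone libraries, in TMM-scaled CPM, by group and experiment. Points are libraries and bars are group means. JAG2 lies higher in STAG2 KO, EZH2 KO and SUZ12 KO libraries than in the controls of their own experiment, and NOTCH3 in controls lies at 130 to 218 CPM in experiment 1 and 41.4 to 79.4 CPM in experiment 2.

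Loss of STAG2 in A673 went with more JAG2 and less NOTCH1 and JAG1. Of the 10 genes, 8 passed the filter on low counts (DLL4 and MFNG did not), 1 rose and 2 fell at an adjusted p under 0.05 with edgeR's quasi-likelihood test. Of all 13574 genes tested 6.67% rose and 5.76% fell, 12.4% in either direction. With the near-alike WT clone libraries Ra and Rb summed, 1 member was called lower and not 2. The median log2 fold change of the 8 was −0.21, and 0.04 over all genes. Without clone 5 it was −0.59, and 0.03 over all genes.

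JAG2, a Jagged ligand, lies at chr14:105140982-105168824 (minus strand, GRCh38) in gene ENSG00000184916, and a same-strand gene, ENSG00000257622, overlaps its exons. In experiment 1 it was at 119 and 110 CPM in STAG2 KO libraries 24 and 5, and at 43.0, 56.7 and 54.0 CPM in the parental, Ra and Rb controls. In experiment 2 it was at 38.0, 33.7 and 91.4 CPM in clones 2, 3 and 5, and at 22.9, 19.2 and 17.8 CPM in the 2 WT clone libraries and the parental line. Every KO library lay above every control of its own experiment, although clones 2 and 3 lay below the controls of experiment 1. The log2 fold change was 1.37 ± 0.248 (SE, 5 against 6 libraries, adjusted p = 0.0049). It was 1.16 (adjusted p = 0.00811) in experiment 1 alone and 1.51 (adjusted p = 0.0831) in experiment 2 alone. Without clone 5, JAG2 was higher by 1.04 (adjusted p = 0.000133).

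JAG1, the other Jagged ligand (ENSG00000101384, chr20:10637684-10673999, minus strand, overlapped on the opposite strand by ENSG00000270792), went the other way. It was at 55.9 and 29.1 CPM in the STAG2 KO libraries of experiment 1 and at 66.2, 58.0 and 56.6 CPM in their controls. In experiment 2 the KO clones held 45.8, 51.1 and 40.0 CPM and the controls 71.3, 70.0 and 78.7 CPM. All 5 KO libraries were below all 6 controls, though library 24 only just, and the log2 fold change was −0.56 ± 0.151 (adjusted p = 0.0331). The call was a narrow one. It was lost with the WT clone as the only control (−0.50, adjusted p = 0.121) and kept in 3 of 11 fits that left out 1 library, those without library 24 of experiment 1, clone 3 or clone 5. In the other 8 the adjusted p was up to 0.0618, that without library 5 of experiment 1.

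NOTCH1, a receptor that most cell types express (ENSG00000148400, chr9:136494433-136546048, minus strand), was at 69.4 and 49.9 CPM in STAG2 KO and 68.8, 107 and 99.0 CPM in control libraries of experiment 1. In experiment 2 it was at 27.8, 40.7 and 33.4 CPM in STAG2 KO and 64.6, 50.9 and 60.8 CPM in control libraries. The groups were apart in experiment 2 and overlapped at the parental library in experiment 1. The log2 fold change was −0.67 ± 0.152 (adjusted p = 0.0152). It was called in all 11 fits without 1 library and also without clone 5 (−0.66, adjusted p = 0.0116), but in neither experiment alone (−0.61 with adjusted p = 0.0969, and −0.74 with adjusted p = 0.0676).

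None of the remaining receptors or Delta-like ligands was called. Within experiment 2, every STAG2 KO clone lay below every control for NOTCH2 and NOTCH4. The same held within experiment 1 for DLL1 and DLL3. NOTCH2 (ENSG00000134250, chr1:119911553-120100779) had a log2 fold change of −0.13 (adjusted p = 0.634), and its counts are uncertain because 4 NOTCH2NL symbols, near-identical copies, held 2.63% to 14.1% as many counts. NOTCH3 (ENSG00000074181, chr19:15159038-15200995), a receptor best known from vascular mural cells, ranged from 34.8 to 145 CPM in STAG2 KO and from 41.4 to 218 CPM in control libraries. Its log2 fold change was −0.29 (adjusted p = 0.71), and −0.71 (adjusted p = 0.0862) without clone 5, which at 113 CPM was the one KO library of experiment 2 above its controls. NOTCH4 (ENSG00000204301, chr6:32194843-32224067), a receptor of endothelium, stayed between 0.472 and 2.63 CPM in both groups (−0.87, adjusted p = 0.212), and its exons overlap GPSM3 on the same strand.

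Among the Delta-like ligands, DLL1 (ENSG00000198719, chr6:170282206-170306565, overlapped by FAM120B on the other strand) had 10 and 20 counts in STAG2 KO and 37, 53 and 51 in control libraries of experiment 1. In experiment 2 clones 2 and 3 had 5 counts each and clone 5 had 138, while the controls had 7, 3 and 8. Clone 5 alone set the sign of the fold change, which was 1.09 ± 1.25 (adjusted p = 0.64) with it and −1.09 (adjusted p = 0.0566) without it. DLL3 (ENSG00000090932, chr19:39498895-39508481, plus strand) had 20 to 95 counts in KO and 31 to 57 in control libraries (0.00, adjusted p = 0.998). DLL4 (ENSG00000128917, chr15:40929340-40939073, plus strand), the ligand of sprouting endothelium, had 25 counts in clone 5 and at most 10 in the other libraries of these experiments. MFNG (ENSG00000100060, chr22:37469063-37486393) was too low to compare. The effects of STAG2 KO in experiments 1 and 2 were compared by an interaction term, which called 0.0% of genes and none of the 8 members with edgeR (adjusted p from 0.101 to 0.966). At an unadjusted p under 0.05 there were 2, and DESeq2 called 1.

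**Figure D2:**
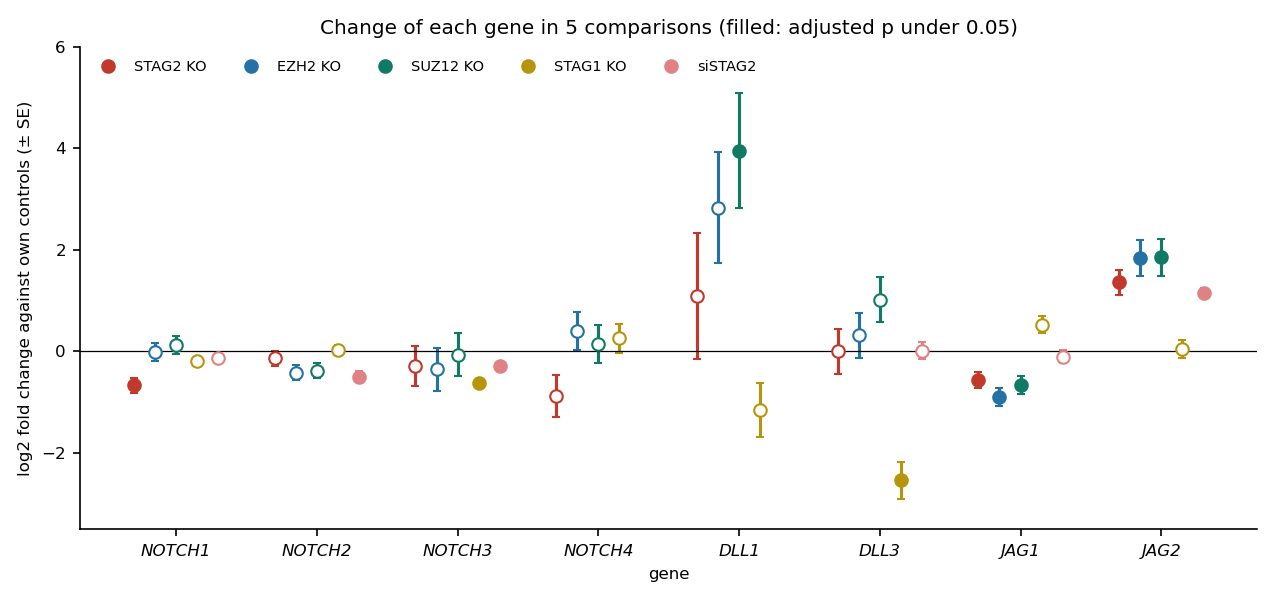
Log2 fold change (vertical axis) of the 8 members that passed the filter in STAG2 KO, EZH2 KO, SUZ12 KO and STAG1 KO clones and after siSTAG2, each against its own controls, with bars for ± 1 SE. Filled points have an adjusted p under 0.05, and JAG2 is filled in all but STAG1 KO, at 1.15 to 1.86.

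The clones without EZH2 or SUZ12 were compared with the same 3 controls of experiment 2, which the STAG2 KO clones of that experiment share, so the 3 comparisons are given side by side and are not independent. Both PRC2 knockouts had the Jagged pair as STAG2 KO had it, with more JAG2 and less JAG1,, while NOTCH1 was not called in either. In EZH2 KO 1 of 8 members rose and 1 fell, where 12% of 15130 genes rose and 3.69% fell (15.7% in all). In SUZ12 KO 2 rose and 1 fell, where 14.7% of genes rose and 5.87% fell (20.6% in all). Median log2 fold changes of the 8 were 0.16 and 0.14, against 0.04 and 0.01 over all genes.

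JAG2 was at 49.5, 87.1 and 65.1 CPM in EZH2 KO clones 1 to 3 and at 77.0, 76.6 and 53.4 CPM in SUZ12 KO clones 1 to 3, all above the control values of 17.8 to 22.9 CPM. It rose by 1.84 ± 0.363 (adjusted p = 0.00578) and 1.86 ± 0.363 (adjusted p = 0.00405) on the log2 scale. JAG1 was at 44.2, 35.5 and 31.1 CPM in EZH2 KO and at 34.7, 54.1 and 43.4 CPM in SUZ12 KO, all below the controls (70.0 to 78.7 CPM). Its log2 fold changes were −0.90 ± 0.179 (adjusted p = 0.00598) and −0.66 ± 0.178 (adjusted p = 0.021). The SUZ12 KO call for JAG1 held in 3 of 6 fits without 1 library, with an adjusted p of up to 0.0817 without SUZ12 KO clone 1, while the other 3 of these Jagged calls held in all 6.

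DLL1 was near the floor in the controls (7, 3 and 8 counts) and had 55, 57 and 29 counts in EZH2 KO and 80, 163 and 83 counts in SUZ12 KO clones. No control overlapped either group. The fitted log2 fold change was 2.84 ± 1.1 (adjusted p = 0.107) for EZH2 KO and 3.96 ± 1.13 (adjusted p = 0.0278) for SUZ12 KO. The first was called by DESeq2 (adjusted p = 0.0308) and by edgeR with the 2 groups alone (0.00414), and the second was called in 2 of 6 fits without 1 library, with an adjusted p of up to 0.106 without the second WT clone control.

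The receptors were not called in either PRC2 knockout by edgeR in the fit over all of experiment 2. For EZH2 KO that fit called 1 member lower, while DESeq2 and edgeR with the 2 groups alone called 2. NOTCH1 was at 55.9, 60.2 and 49.3 CPM in EZH2 KO and 60.9, 73.5 and 49.8 CPM in SUZ12 KO, with log2 fold changes of −0.00 (adjusted p = 0.99) and 0.13 (adjusted p = 0.63). NOTCH2 was below the controls (153 to 160 CPM) in all 6 clones, at 96.5 to 125 CPM and 96.7 to 131 CPM, with −0.42 (adjusted p = 0.0734) and −0.38 (adjusted p = 0.0903). STAG2 KO clones 2, 3 and 5 of the same experiment also lay below these controls, at 102.5, 127.9 and 124.2 CPM. In the PRC2 knockouts NOTCH3, NOTCH4 and DLL3 had log2 fold changes from −0.35 to 1.02. DLL4 had at most 7 counts and MFNG at most 5 in any EZH2 KO or SUZ12 KO clone. EZH2 KO and SUZ12 KO differed from each other in none of the 8 members (edgeR, adjusted p of 0.999 for each). None had an unadjusted p under 0.05, DESeq2 called 0, and 0.00661% of all genes were called.

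A direct contrast within experiment 2, STAG2 KO against the mean of both PRC2 knockouts, called 2 of 8 members lower and none higher, where 15.9% of 15130 genes were called lower and 13.8% higher (29.7% in all). NOTCH1 was lower in STAG2 KO clones (27.8 to 40.7 CPM) than in every PRC2 KO clone (49.3 to 73.5 CPM), by a log2 difference of −0.79 ± 0.161 (adjusted p = 0.0038). NOTCH4 had 20, 9 and 19 counts in STAG2 KO, 46, 35 and 42 in EZH2 KO and 27, 40 and 38 in SUZ12 KO clones, a log2 difference of −1.13 ± 0.347 (adjusted p = 0.0287). The NOTCH4 call held in 5 of 9 fits without 1 library, with an adjusted p of up to 0.114 without STAG2 KO clone 3. The contrast was 0.16 (adjusted p = 0.458) for JAG1 and −0.33 (adjusted p = 0.449) for JAG2. Without clone 5, 4 members were called lower, NOTCH1, NOTCH4, JAG2 (−0.95, adjusted p = 0.00581) and DLL1 (−3.70, adjusted p = 0.000454), so clone 5 decided whether JAG2 and DLL1 were called between STAG2 KO and PRC2 KO cells.

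**Figure D3:**
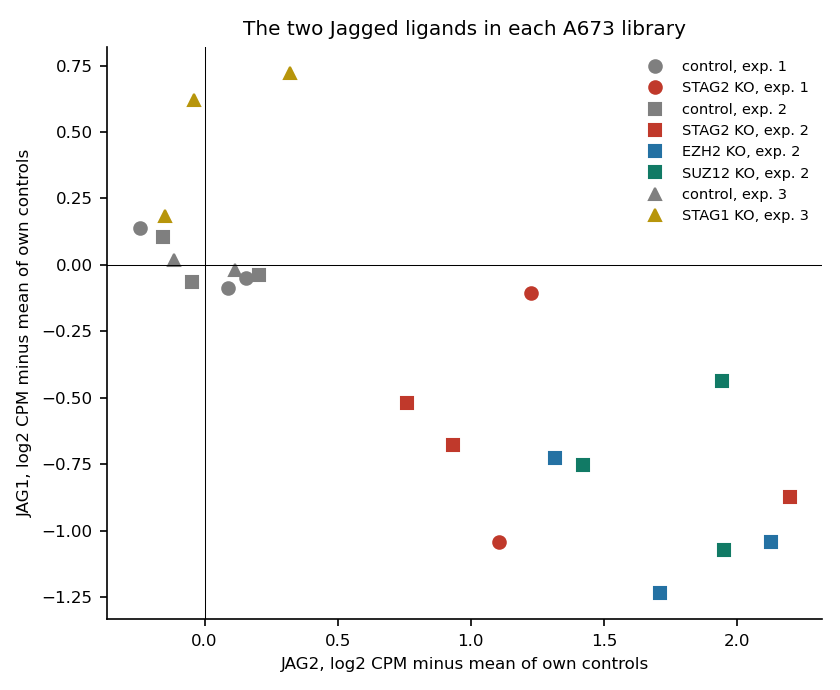
JAG2 (horizontal axis) against JAG1 (vertical axis) in each A673 clone library, as log2 CPM minus the mean of the controls of the same experiment. All 11 STAG2 KO, EZH2 KO and SUZ12 KO libraries lie to the lower right of the controls, with JAG2 from 0.76 to 2.20 and JAG1 from −1.24 to −0.10, and the 3 STAG1 KO libraries lie above the controls in JAG1.

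STAG1 KO cells had a different set of members called. Against 2 controls, 0 of 8 members rose and 2 fell, where 2.77% of 14373 genes rose and 2.5% fell (5.27% in all), and the median over the 8 was −0.08 (−0.00 over all genes). NOTCH3 was at 141, 157 and 143 CPM in the libraries labelled STAG1 KO 1, 5 and 7 and at 227 CPM in both controls, a log2 fold change of −0.63 ± 0.0846 (adjusted p = 0.0257). DLL3 had 7, 13 and 17 counts in STAG1 KO and 82 and 73 in control libraries, with −2.54 ± 0.366 (adjusted p = 0.0268). Both groups were apart in both genes, yet each call held in only 2 of 5 fits without 1 library. Over these fits the log2 fold change ran from −0.67 to −0.59 for NOTCH3 and from −2.77 to −2.32 for DLL3. The highest adjusted p, 0.255 and 0.245, came without the parental library, which leaves 1 control assumed to vary like the KO libraries. Without the library labelled STAG1 KO 1 both calls held (adjusted p = 0.0224 and 0.0244). DLL4 had 1, 1 and 3 counts in STAG1 KO and 6 and 10 in control libraries, too few to test, and MFNG had none.

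JAG1 was at 51.5, 74.9 and 69.9 CPM in STAG1 KO and at 44.8 and 46.0 CPM in control libraries. All 3 STAG1 KO libraries were above both controls, with a log2 fold change of 0.53 ± 0.169 that missed the threshold (adjusted p = 0.126). It passed without the library labelled STAG1 KO 1 (0.68, adjusted p = 0.0188) and with DESeq2 (adjusted p = 0.0482). JAG2 was at 32.0, 44.4 and 34.6 CPM against 38.5 and 32.8 CPM, a log2 fold change of 0.05 (adjusted p = 0.876), and the groups overlapped. NOTCH1 (−0.19, adjusted p = 0.252), NOTCH2 (0.03) and NOTCH4 (0.26) were not called, nor was DLL1, with 11, 41 and 55 counts against 76 and 93 (−1.16, adjusted p = 0.238).

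The difference between the STAG2 KO effect and the STAG1 KO effect was tested over the 16 libraries of experiments 1 to 3. It called 2 of 8 members, 1 in each direction, where 2.36% of 14696 genes were called higher and 3.75% lower (6.11% in all). For JAG1 the difference was −1.13 ± 0.269 (adjusted p = 0.023) and for DLL3 it was 2.51 ± 0.606 (adjusted p = 0.0251), each called in 12 of 16 fits without 1 library. Without the library labelled STAG1 KO 1 the DLL3 difference, 2.29, lost its call (adjusted p = 0.0688). For JAG2 it was 1.27 ± 0.393 and missed the threshold (adjusted p = 0.0764). DESeq2 called it (adjusted p = 0.031), as did edgeR without clone 5 of experiment 2 (0.94, adjusted p = 0.0117). NOTCH1 (−0.52, adjusted p = 0.254), NOTCH2 (−0.20), NOTCH3 (0.30, adjusted p = 0.863), NOTCH4 (−1.17, adjusted p = 0.361) and DLL1 (2.18, adjusted p = 0.561) were not called.

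Knockdown of STAG2 by siRNA in A673 cells gave the same direction for JAG2. The values are normalised reads, tested as log2(value + 1) with limma, a scale that understates the change of low genes. Of the 10 members, 6 passed the minimum level, 1 rose and 2 fell, where 9.54% of 12060 genes rose and 11% fell (20.5% in all). The median of the 6 was −0.11, and 0.01 over all genes. JAG2 was at 137, 140 and 134 in siC and at 324, 300 and 291 in siSTAG2 libraries, far apart, and rose by 1.15 ± 0.098 (adjusted p = 1.62e-09). JAG1 was at 148, 138 and 149 in siC and at 115, 151 and 141 in siSTAG2 libraries (−0.10 ± 0.122, adjusted p = 0.622), so the groups overlapped.

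Among receptors, NOTCH2 fell after siSTAG2 from 284, 232 and 254 to 188, 194 and 164 normalised reads, by a log2 fold change of −0.49 ± 0.104 (adjusted p = 0.00101). NOTCH3 fell from 305, 332 and 303 to 273, 241 and 251, by −0.30 ± 0.0889 (adjusted p = 0.0182), a call that held in 3 of 6 fits without 1 library, with an adjusted p of up to 0.0918 without siSTAG2 library 2. Both were apart in all libraries. NOTCH1, which fell in the STAG2 KO clones, was at 257, 287 and 216 in siC and 231, 226 and 236 in siSTAG2 libraries (−0.12 ± 0.102, adjusted p = 0.436), and the difference between clones and knockdown was not tested. DLL3 was at 62.0 to 77.2 in siC and 64.4 to 74.2 in siSTAG2 libraries (0.02, adjusted p = 0.959). NOTCH4 and DLL1 had at most 10 and 6 reads in a library, DLL4 at most 1, and MFNG none.

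The SK-N-MC and A4573 pairs have 1 library per arm, so each difference below compares 2 libraries, has no replicate check and no test, and its 95% interval covers counting error only. In SK-N-MC, 2 of 9 compared members were at least 2-fold higher and 2 at least 2-fold lower without STAG2, where 10.2% and 11.4% of 16413 genes were. In A4573, 0 were higher and 4 lower without STAG2, where 7.76% and 14.1% of 16124 genes were. JAG1 was lower without STAG2 in both pairs, at 2.52 against 27.2 CPM in SK-N-MC (log2 −3.40, from −3.79 to −3.09) and 27.5 against 65.6 CPM in A4573 (−1.25, from −1.37 to −1.14). JAG2 went opposite ways, at 160.0 against 121 CPM in SK-N-MC (0.41, from 0.35 to 0.47) and 29.7 against 83.2 CPM in A4573 (−1.48, from −1.59 to −1.37).

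DLL3 also went opposite ways, with 1088 against 200 counts in SK-N-MC (log2 2.54) and 5.68 against 16.6 CPM in A4573 (−1.53). NOTCH3 was higher without STAG2 in both, at 104 against 29.6 CPM in SK-N-MC (1.82) and 189 against 135 CPM in A4573 (0.48). NOTCH1 was at 52.1 against 78.1 CPM in SK-N-MC (−0.58) and at 44.8 against 42.2 CPM in A4573 (0.09, from −0.03 to 0.20). The scarce members had few counts: NOTCH4 had 51 against 178 in SK-N-MC, DLL1 had 20 against 43 in SK-N-MC and 14 against 73 in A4573, and DLL4 had 8 against 9 and 16 against 33. STAG2 itself was at 184 against 293 CPM in SK-N-MC and 34.1 against 86.9 CPM in A4573. In the SK-N-MC KO library leukocyte markers summed to 60.8 CPM against 6.71 CPM with STAG2, of which PTPRC was 58.2 and 3.0 CPM and the other 3 genes 2.62 and 3.7 CPM. Epithelial markers summed to 9.99 against 0.941 CPM and endothelial markers to 24.3 against 46.2 CPM, of which EMCN was 20.6 and 44.7 CPM. The part of these in the differences was not tested.

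**Figure D4:**
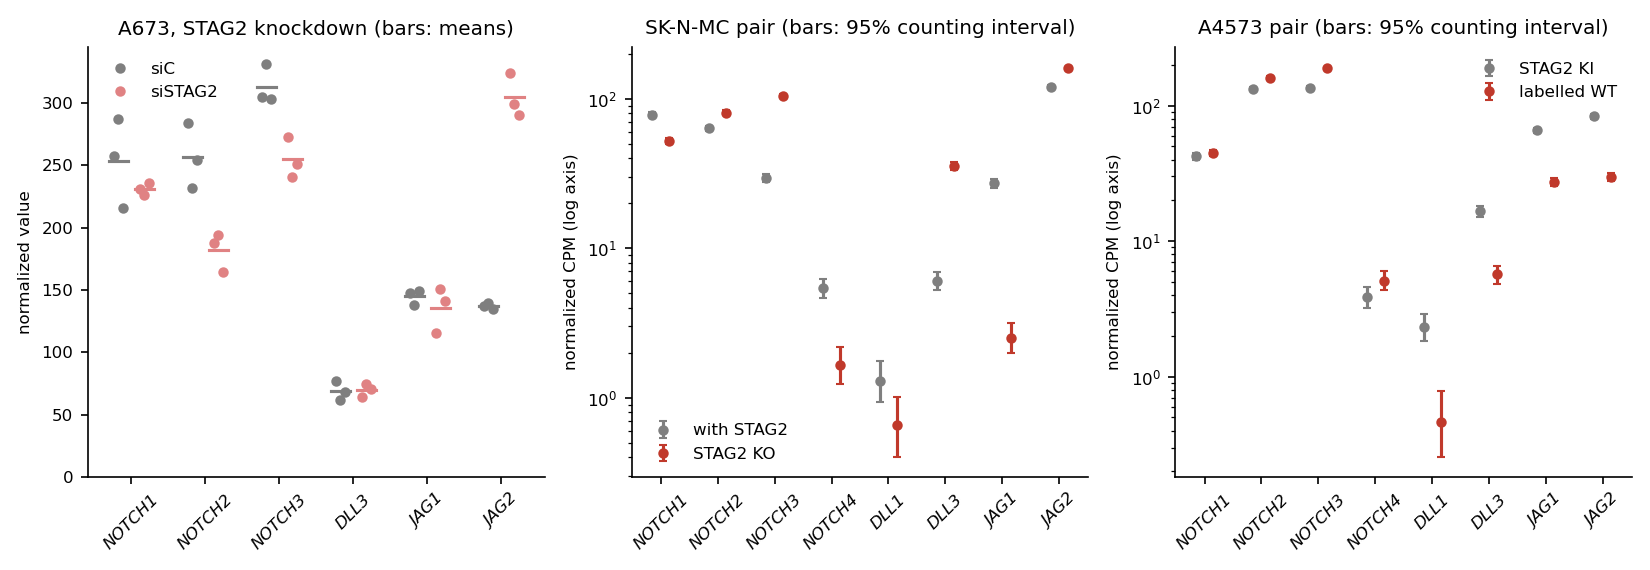
Normalised reads of 6 members in siC and siSTAG2 libraries (points, with group means) and CPM of the members with and without STAG2 in SK-N-MC and A4573 on a log axis, with bars for the 95% counting interval. JAG2 is higher after siSTAG2 (291 to 324 against 134 to 140) and in SK-N-MC STAG2 KO, and lower in A4573 without STAG2.

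Other genes of the pathway came from 8 lists of 55 genes: other fringes and glycosyltransferases, receptor proteases, ligand ubiquitin ligases, the nuclear activation complex, corepressors, modulators of receptor turnover, target genes and non-canonical ligands. In STAG2 KO 5 of 51 tested rose and 4 fell, in EZH2 KO 7 of 53 rose and 4 fell, in SUZ12 KO 10 of 53 rose and 7 fell, in STAG1 KO 2 of 51 rose and 1 fell, and after siSTAG2 5 of 46 rose and 7 fell. The medians of these lists, −0.03, 0.04, 0.01, 0.01 and −0.03 in that order, stood beside 0.04, 0.04, 0.01, −0.00 and 0.01 over all genes. The shares called were 17.6%, 20.8%, 32.1%, 5.88% and 26.1%, beside 12.4%, 15.7%, 20.6%, 5.27% and 20.5% of all genes.

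The target genes were the list nearest to the readout of the pathway. HES1, a repressor that NOTCH turns on directly, was at 75.5 and 52.5 CPM in STAG2 KO and 98.7, 147 and 143 CPM in control libraries of experiment 1. In experiment 2 it was at 57.7, 52.3 and 63.3 CPM in STAG2 KO and 116, 103 and 87.8 CPM in control libraries. All 5 KO libraries were below all 6 controls, and HES1 fell by 0.87 on the log2 scale (SE 0.15, adjusted p = 0.00381), in all 11 fits without 1 library and in each experiment alone (−1.01 with adjusted p = 0.0312, and −0.77 with adjusted p = 0.0427).

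HES1 was at 77.1 to 87.1 CPM in EZH2 KO (−0.24, adjusted p = 0.236) and 84.3 to 96.1 CPM in SUZ12 KO clones (−0.10, adjusted p = 0.636). The direct contrast of STAG2 KO with PRC2 KO was −0.59 ± 0.117 (adjusted p = 0.00332). In STAG1 KO it was at 134 to 168 CPM against 146 and 151 CPM (0.01, adjusted p = 0.97), and the STAG2 and STAG1 effects differed by −0.92 ± 0.233 (adjusted p = 0.0315), a call that held in 9 of 16 fits without 1 library, with an adjusted p of up to 0.196 without the parental library of experiment 3. HES7, a scarce target gene named after its values were seen, differed the other way in that contrast (2.17, adjusted p = 0.0348). After siSTAG2 HES1 fell from 2002, 1874 and 2163 to 1467, 1558 and 1707 normalised reads (−0.35 ± 0.0654, adjusted p = 0.000291). In the pairs HES1 was at 68.8 against 105 CPM in SK-N-MC (−0.61) and 48.0 against 286 CPM in A4573 (−2.57), lower without STAG2 in both.

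HES4, HEYL and NRARP, further target genes, did not pass the test in STAG2 KO clones (−0.22 with adjusted p = 0.515, −0.14 with adjusted p = 0.805, and 0.39 with adjusted p = 0.455). In SUZ12 KO all 3 rose. NRARP, a feedback inhibitor, was at 17.8, 23.8 and 20.5 CPM against 4.85 to 8.25 CPM (1.70, adjusted p = 0.005), HEYL at 9.36, 11.7 and 5.74 CPM against 2.05 to 4.64 CPM (1.46, adjusted p = 0.0175) and HES4 at 17.1, 28.4 and 14.1 CPM against 8.37 to 9.57 CPM (1.20, adjusted p = 0.0225). The NRARP call held in all 6 fits without 1 library and the HEYL and HES4 calls in 2 of 6, with an adjusted p of up to 0.0764 and 0.113 without SUZ12 KO clone 2. In EZH2 KO NRARP rose (1.31, adjusted p = 0.0242), a call kept in 2 of 6 such fits, with an adjusted p of up to 0.11 without the second WT clone control, while HEYL (1.08, adjusted p = 0.0734) and HES4 (0.97, adjusted p = 0.0662) missed the threshold with every clone above every control. HEYL (−1.11, adjusted p = 0.0266) and HES4 (−1.09, adjusted p = 0.016) were lower in STAG2 KO than in PRC2 KO clones, in all libraries, and these calls held in 5 and 8 of 9 fits without 1 library. HEY1 was not called in any full comparison, with −0.48 (adjusted p = 0.536) in STAG2 KO and −0.90 (adjusted p = 0.0817) after siSTAG2, but without clone 5 it was lower in STAG2 KO (−0.97, adjusted p = 0.0352). HEY2 was under 1 CPM in A673.

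**Figure D5:**
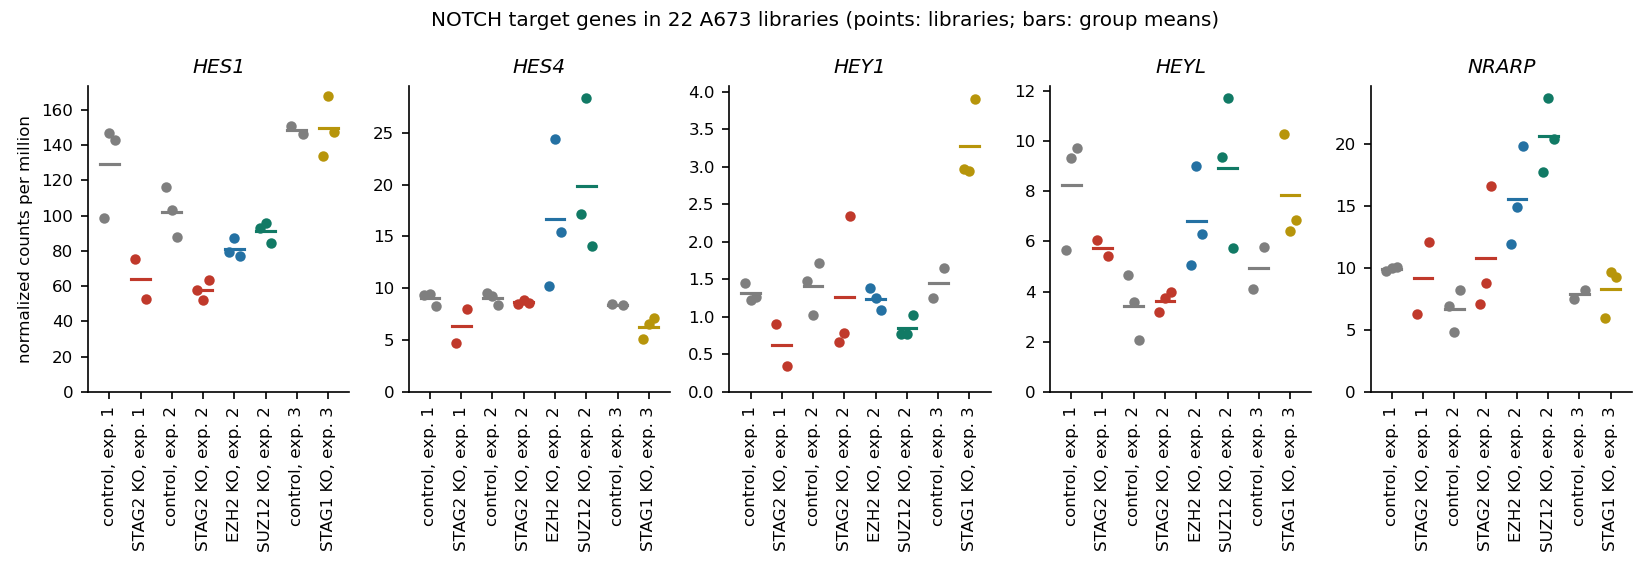
CPM of the target genes HES1, HES4, HEY1, HEYL and NRARP in the 22 A673 clone libraries, by group and experiment, with bars for group means. HES1 is at 52.3 to 75.5 CPM in STAG2 KO and 87.8 to 147 CPM in control libraries of experiments 1 and 2, while NRARP is at 11.9 to 23.8 CPM in PRC2 KO clones and 4.85 to 8.25 CPM in their controls.

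In the signal-receiving machinery, MAML2, a coactivator of the NOTCH transcription complex, was at 0.45 and 1.90 CPM in STAG2 KO and 10.8, 24.9 and 21.4 CPM in control libraries of experiment 1, and at 1.55, 2.57 and 4.02 CPM against 10.7, 10.8 and 9.47 CPM in experiment 2. The groups were far apart (−2.72 ± 0.541, adjusted p = 0.00791). MAML2 was also lower in STAG2 KO than in PRC2 KO clones (−1.49 ± 0.292, adjusted p = 0.00313), and was not called in EZH2 KO, SUZ12 KO or STAG1 KO or after siSTAG2 (−0.47, adjusted p = 0.222). PSEN2, a catalytic subunit of gamma-secretase, was at 32.2 to 39.7 CPM in EZH2 KO, 29.0 to 42.7 CPM in SUZ12 KO and 7.53 to 9.44 CPM in control libraries (2.14 with adjusted p = 0.000418, and 2.08 with adjusted p = 0.000328). It was at 7.29 to 14.8 CPM in the STAG2 KO clones of that experiment, lower than in PRC2 KO (−1.71, adjusted p = 0.000361). Over both experiments PSEN2 rose in STAG2 KO (0.87, adjusted p = 0.0446), with overlapping groups, and it rose after siSTAG2 (0.46, adjusted p = 0.0468), a call kept in 2 of 6 fits without 1 library. FURIN, which cuts the receptor in the secretory pathway, rose in EZH2 KO (0.68, adjusted p = 0.0104), in 5 of 6 such fits.

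On the ligand side, DNER, a non-canonical ligand known from neurons, was at 16.7 and 51.2 CPM in STAG2 KO and 7.05, 14.0 and 12.4 CPM in control libraries of experiment 1, and at 26.2, 23.0 and 26.5 CPM against 10.3, 9.56 and 5.93 CPM in experiment 2. It rose by 1.62 ± 0.286 (adjusted p = 0.00426) in the clones and from 91.5, 103 and 90.6 to 180, 198 and 177 normalised reads after siSTAG2 (0.95 ± 0.12, adjusted p = 1.27e-06). EGFL7, a secreted antagonist of NOTCH best known from endothelium, fell in STAG2 KO clones from 71.2 to 101 CPM in controls to 37.8 to 58.7 CPM (−0.80 ± 0.156, adjusted p = 0.00693), and after siSTAG2 (−0.46, adjusted p = 0.00296). NEURL1B, a ubiquitin ligase for ligands, rose in EZH2 KO (1.94, adjusted p = 0.0126) and SUZ12 KO (2.42, adjusted p = 0.00293), was lower in STAG2 KO than in PRC2 KO clones (−2.17, adjusted p = 0.00253) and fell after siSTAG2 (−0.66, adjusted p = 0.0107). The EZH2 KO and siSTAG2 calls for NEURL1B held in 4 of 6 fits each.

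DLK1, a non-canonical ligand that lacks the receptor-activating domain, had 0 counts in all 5 STAG2 KO libraries, 2, 3 and 8 in the controls of experiment 2, 25, 42 and 217 in EZH2 KO and 86, 650 and 206 in SUZ12 KO clones (adjusted p = 0.0256 and 0.005, and 0.00166 for STAG2 KO against PRC2 KO). DTX1 and DTX4, ubiquitin ligases of the Deltex family that regulate receptor turnover, rose in SUZ12 KO (3.75 with adjusted p = 0.00897, and 3.35 with adjusted p = 0.00166). In EZH2 KO 2 of the 8 modulators of receptor turnover were called higher too. Between EZH2 KO and SUZ12 KO 0 of them were called, so the rise is not particular to SUZ12 KO. In STAG1 KO cells LFNG, another fringe, was at 44.9, 42.2 and 35.7 CPM against 8.38 and 9.12 CPM (2.22 ± 0.154, adjusted p = 0.0147), and MFAP2, a microfibril protein that binds Jagged1, rose by 0.68 (adjusted p = 0.0439). These calls held in 3 and 1 of 5 fits without 1 library, with an adjusted p of up to 0.218 and 0.255 without the parental library. LFNG was not called in STAG2 KO clones (−0.47, adjusted p = 0.437), fell after siSTAG2 (−0.39, adjusted p = 0.0282), and its STAG2 and STAG1 effects differed by −2.73 ± 0.585 (adjusted p = 0.0137).

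For 4 members called in at least 2 comparisons, the genes with the most similar log2 CPM were looked for among 11039 genes. Values were taken relative to the controls of the same experiment, over the 22 A673 clone libraries. DLL3 was called in 2 comparisons as well, and no such genes are given for it. These are descriptions over libraries that share batches, edits and controls, and no test is attached. For JAG2 they were PLEKHH1 (Pearson r = 0.954, Spearman rho = 0.928) and KIF21B (0.933 and 0.875). For JAG1 they were ENC1 (0.921 and 0.895) and ENOX2 (0.881 and 0.88), for NOTCH3 NRBP2 (0.926 and 0.895) and ADA (0.88 and 0.721), and for NOTCH1 ISYNA1 (0.904 and 0.909) and CDC42BPG (0.881 and 0.831). Without the 2 libraries farthest from the median of the member, r was 0.709 to 0.942 over these pairs, lowest for NOTCH3 and ADA.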

How the data were processed

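RNA was measured in 32 libraries of Ewing sarcoma cell lines. According to the methods, libraries were oligo-dT primed and not directional, and single-end 86-nt reads were placed on hg38 with up to 2 mismatches and 5 multi-hits. The submitters' processing notes name FastQC, TopHat2 2.0.0, Bowtie 0.12.7, SAMtools 0.1.16 and DESeq2, and the counting program is not given in the sources used here. For the A673 clones and the pairs, the deposited values are raw counts of reads per gene symbol. For the knockdown the authors deposited a signal, counts divided by 1 size factor per library. All of these values (100%, within 0.01) were whole reads after rescaling, and 56104 of 60199 IDs had a symbol. Columns with values not used numbered 0. Without strand, reads of a gene and of an antisense partner cannot be separated.

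Libraries were grouped by the genotype or siRNA in their labels. The STAG2 KO libraries of experiment 1 and the STAG1 KO libraries were matched to the group, not to a clone. The WT clone libraries Ra and Rb of experiment 1 resembled each other most (mean chi-square per gene 1.33, against 9.41 to 140 in other replicate pairs) and were also summed as an alternative. The counts were tested with edgeR 4.0.16 under R 4.3.3, by its quasi-likelihood test after TMM scaling and filterByExpr, with experiment as a term for experiments 1 and 2 and with a single fit over experiment 2 for the PRC2 knockouts. The knockdown was analysed with limma 3.58.1 on log2(value + 1) where the mean reached 10. A call needed an adjusted p (Benjamini-Hochberg, over all genes tested) under 0.05. In the pairs, genes with at least 10 counts were compared by log2 CPM (prior count 2). Each CPM has an exact Poisson interval. Each log2 ratio has an exact binomial interval from the 2 counts, without the prior count. In simulated data with 200 changed genes, the share of 2-fold changes called was 100% for STAG2 KO (13574 genes), 100% for EZH2 KO (14262 genes, simulated for a fit of the 2 groups alone), 95% for STAG1 KO (14373 genes) and 95% for the knockdown (12060 genes). The simulation gave every gene the same fixed spread, no shift between experiments, and changes only in genes above a minimum level. It did not model the spread between the real clones, so these shares do not give the power in these data.

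All 10 members are reported, those too low to test by their counts. Of the pathway lists, up to 4 genes with the largest fold change were named if called, at a mean level of 5 CPM or more (50 in the knockdown) and with libraries apart from controls, and the target genes were named where above 1 CPM. The members and lists were chosen with earlier results of these data known. Alternatives were DESeq2 1.42.0 (test and size factors), no filter, no experiment term, each experiment alone, other controls, pseudocounts and minimums, recovered reads, a replicate block, and leaving out each library. Whether the siRNA replicate numbers pair the samples was checked by the correlation of same-numbered deviations from group means, which was 0.026, 0.037 and 0.004.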

Additional observations from a re-analysis of the deposited data

Results flagged for a closer look

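Some members had effects that differed between groups by a test of the difference. NOTCH1 (−0.79 on the log2 scale, adjusted p = 0.0038) and NOTCH4 (−1.13, adjusted p = 0.0287) were lower in STAG2 KO than in PRC2 KO clones of experiment 2, by edgeR's quasi-likelihood test. For DLL3 the STAG2 KO effect exceeded the STAG1 KO effect by 2.51 (adjusted p = 0.0251), and for JAG1 it was lower by −1.13 (adjusted p = 0.023).

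The isogenic pairs gave opposite directions for 3 members without STAG2, each beyond its counting interval, a difference that was not tested because each arm is 1 library. NOTCH4 was at −1.66 in SK-N-MC and 0.40 in A4573, DLL3 at 2.54 and −1.53, and JAG2 at 0.41 and −1.48. Dixon's criterion (0.71 for 5 and 0.625 for 6 libraries) singled out no library in 16 tests over the STAG2 KO and control libraries joined from experiments 1 and 2, where chance gives about 1 in 20. It was not applied within groups of 3, such as that of clone 5 of experiment 2, which stood apart from the other clones there. The outcome therefore cannot show that no library stands apart within its own experiment.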

How the results depend on the processing

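Of 1137 fold changes of single genes recomputed under alternatives, 996 kept their direction and call, 91 lost the call, 14 gained it, 34 changed sign and 2, in A4573, moved beyond the counting interval. The cause of these changes was not tested.

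In STAG2 KO against control, 1 member was called higher and 2 lower. With no experiment term and in experiment 2 alone the counts were 0 and 1. With the WT clone as the only control and with WT libraries summed 1 was lower, and in experiment 1 alone 0 were lower. Leaving out 1 library gave 1 to 2 lower, with 1 in the 8 fits that lost JAG1. Sign changes were to 0.125 for NOTCH2, −1.567 for DLL1, −0.951 for DLL3 and −0.109 for NRARP in experiment 1 alone, and to 0.19 for NOTCH3 and 0.142 for HEYL in experiment 2 alone. DLL3, at 0.00, was at −0.005 with DESeq2, −0.016 with its size factors, −0.017 with no filter and −0.148 with the WT clone only. Leaving out 1 library gave −0.709 to 0.019 for NOTCH3, −1.091 to 1.914 for DLL1 and −0.258 to 0.274 for DLL3.

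In EZH2 KO 1 member was called higher and 1 lower, and 2 and 2 with DESeq2 and with only the 2 groups in the fit. NOTCH1, at −0.00, was at 0.004 with the WT clone only and at −0.124 to 0.072 without 1 library. In SUZ12 KO (2 higher, 1 lower) the WT clone as only control gave 1 and 0, and leaving out 1 library gave 1 to 2 higher and 0 to 1 lower, with −0.015 to 0.245 for NOTCH1, −0.278 to 0.213 for NOTCH3 and −0.004 to 0.315 for NOTCH4. In STAG2 KO against PRC2 KO (2 lower) no filter gave 1 lower, leaving out 1 library gave 1 to 4, with 4 without clone 5, and DLL1 ran from −3.7 to 0.1.

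In STAG1 KO (0 higher, 2 lower) DESeq2 gave 1 higher, and leaving out 1 library gave 0 to 1 higher and 0 to 2 lower, with −0.019 to 0.066 for NOTCH2 and −0.088 to 0.183 for JAG2. Between STAG2 and STAG1 effects (1 higher, 1 lower) DESeq2 gave 2 higher, and leaving out 1 library gave 0 to 2 higher and 0 to 1 lower, with −0.126 to 0.594 for NOTCH3. Between experiments 1 and 2 (0 and 0) DESeq2 gave 1 higher. After siSTAG2 (1 higher, 2 lower) leaving out 1 library gave 1 to 2 lower, with −0.055 to 0.101 for DLL3 and −0.181 to 0.012 for JAG1, and edgeR on recovered reads (12199 genes tested) gave 1 higher and 2 lower.

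A block for the replicate number left the counts after siSTAG2 at 1 higher and 2 lower. JAG2 was at 1.145 (limma, adjusted p = 4.17e-13), and NRARP (0.80) gained a call (adjusted p = 0.0455). The correlations of same-numbered libraries were under 0.1, so the numbers are not taken as pairs. The siC libraries 1 and 2 correlated best with their own number and siC 3 with siSTAG2 1.

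The median of all genes moved by more than 0.1 only in STAG2 KO against PRC2 KO, from −0.01 to −0.131 with the DESeq2 test and −0.108 with no filter, which take in more genes. With DESeq2 size factors on the same genes it was −0.015. Depth limits DLL1, DLL4, NOTCH4 and MFNG, with few counts per library, and the 2 libraries of each isogenic pair carry no biological error.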
